A study of Mus musculus with 4 samples.

Results

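Mitosis genes were examined in the mouse liver cancer line Hepa1-6 with and without an shRNA against Setdb1. The set holds 42 genes, taken by symbol from a list of mitotic cyclins, kinases, checkpoint, kinetochore, spindle, cytokinesis and chromosome structure genes, out of 54838 genes in the deposited tables. All 42 were found, all are annotated as protein-coding, and all had enough counts to be tested, the lowest count of any of them in any library being 287. The knockdown group held 2 RNA sequencing libraries of Hepa1-6 cells labelled Setdb1 knockdown, and the control group held 2 libraries of Hepa1-6 cells that carry the shRNA labelled NC and are Setdb1 wild type by the labels. The series describes the cells as subclones, and the labels give no second shRNA against Setdb1, no number of clones and no separate cultures. The p-values therefore cover no more than the differences among these 4 libraries, and those may be technical.

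Mitosis begins when Cdk1, bound to cyclin B, is activated, after which chromosomes condense, the nuclear envelope breaks down and a spindle of microtubules captures each chromosome at its kinetochore. A checkpoint holds the cell until every kinetochore is attached, the anaphase-promoting complex then marks cyclin B and securin for destruction, and the cell divides by cytokinesis. Many of these genes are transcribed together late in the cell cycle by the MuvB complex with B-Myb and Foxm1, which acts through a promoter element named CHR, often with CCAAT boxes nearby, and they are widely used as markers of dividing cells. In bulk RNA a smaller share of cells in mitosis and less RNA of these genes per cell cannot be told apart.

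The CHR element is shown here because it is the sequence that members of the set are known to share. Promoters from RefSeq (GRCm38.p6, 250 bases before to 50 bases after the gene start) were given for 35 of the 42 genes, as 38 promoters. The letters TTTGAA or TTCGAA on either strand, the usual forms of the CHR, stood in 31 of the 38 (81.6%), against 19.2% of all 32851 promoters. CCAAT on either strand stood in 30 of the 38 (78.9%), against 37.4% of all promoters, and both stood in 73.7% against 7.52%. The CHR and CCAAT letters can share at most an end letter, and a match is a description of the sequence, not of binding. The following windows of 30 bases run 5′ to 3′ on the gene's own strand, with the CHR letters closest to the gene start in capitals (TTCAAA is TTTGAA read on the other strand). They are given for Kif23, which is described first among the results, for 3 members whose levels spread widely between libraries or stood lower in both knockdown libraries (Cenpf, Smc2 and Hmmr), and for Cdk1 and Ccnb2 as classic mitotic entry genes.
Kif23, chr9:61946780-61946809, minus strand: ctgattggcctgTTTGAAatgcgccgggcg
Cenpf, chr1:189688067-189688096, minus strand: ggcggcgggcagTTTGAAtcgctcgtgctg
Smc2, chr4:52439235-52439264, plus strand: ctcgcgccgaaaTTCAAAggaacagttccg
Hmmr, chr11:40733412-40733441, minus strand: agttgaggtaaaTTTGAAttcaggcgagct
Cdk1, chr10:69352910-69352939, minus strand: taccgcggcgagTTTGAAactgctggcact
Ccnb2, chr9:70421533-70421562, minus strand: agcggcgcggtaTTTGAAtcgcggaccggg

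Positions are counted from the RefSeq gene start, which for Kif23 lies upstream of the GENCODE span given with its values. In Kif23 the CHR begins at base 3 from that start, and a CCAAT box on the opposite strand begins 7 bases before the gene start. Mki67 carried 2 CHR matches, the nearer one beginning 98 bases before the gene start, and 3 CCAAT boxes further upstream. The 250 bases before the start of both genes are printed below with CHR and CCAAT letters, on either strand, in capitals, because these are the gene that passed the test and the gene with the lowest fold change of the set.
Kif23, chr9:61946800-61947049, minus strand: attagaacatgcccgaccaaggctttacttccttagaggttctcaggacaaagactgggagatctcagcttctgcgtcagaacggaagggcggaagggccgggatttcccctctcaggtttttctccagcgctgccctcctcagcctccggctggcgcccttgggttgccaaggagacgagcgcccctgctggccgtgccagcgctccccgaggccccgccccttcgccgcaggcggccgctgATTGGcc
Mki67, chr7:135716380-135716629, minus strand: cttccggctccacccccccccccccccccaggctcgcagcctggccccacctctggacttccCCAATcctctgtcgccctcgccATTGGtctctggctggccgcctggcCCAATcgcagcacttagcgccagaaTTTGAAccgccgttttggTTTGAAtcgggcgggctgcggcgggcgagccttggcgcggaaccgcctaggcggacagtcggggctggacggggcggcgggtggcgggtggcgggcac

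**Figure D1:**
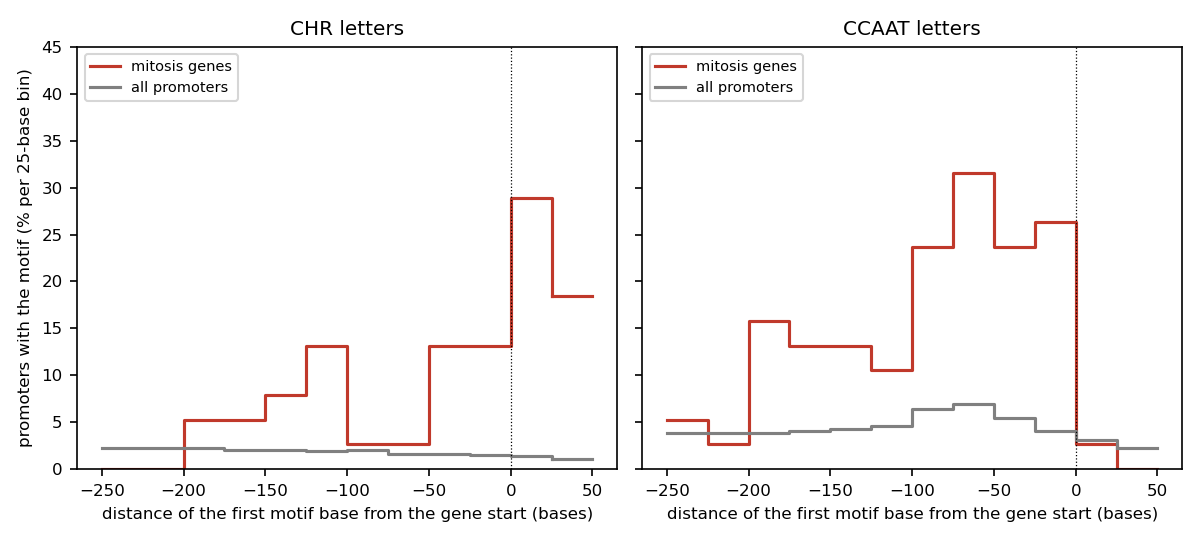
Share of promoters (percent, vertical axis) in which a motif begins in each 25-base bin, against distance from the gene start (bases), for the 38 promoters of mitosis genes (red) and all 32851 promoters (grey). CHR letters of mitosis genes were most frequent in the first 25 bases of the gene (28.95% of promoters), and CCAAT letters between 75 and 51 bases before it (31.58%).

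The libraries held between 19513567 and 19615440 expected counts. Setdb1, the histone H3 lysine 9 methyltransferase that the shRNA targets, had 3 and 2.51 TPM (transcript abundance per length, scaled to the same total in each library) in knockdown libraries 1 and 2, against 14.6 and 17.46 TPM in control libraries 1 and 2. On the log2 scale, knockdown over control, this was -2.49 (SE 0.182) with an edgeR adjusted p of 1.495e-04, and both libraries labelled knockdown were below both controls. Of the hepatocyte and hepatoma markers, Alb, Afp, Krt8 and Krt18 were all above 400 TPM in every library, whereas Apoa1 and Ttr were under 1 TPM. Alb rose, with 856 and 732 TPM in the knockdown libraries against 429 and 432 TPM in the controls (log2 fold change 0.94, edgeR adjusted p = 0.00563), and Krt18 had 1284 and 1137 TPM against 1367 and 1646 TPM and did not pass. The summed TPM was 3404 and 3127 in the knockdown libraries and 2947 and 3215 in the controls for these 6 genes, and 15.26 and 12.44 against 8.05 and 8.09 for the 4 leukocyte markers, nearly all of it Cd68, with Cd3e at 0 in all 4 libraries. Summed endothelial markers stayed under 1 TPM in every library. The 4 stellate and fibroblast markers summed to 1373 and 1346 against 1227 and 1339 TPM, nearly all of it Dcn, with Col1a2 and Pdgfrb at or under 0.02 TPM. Col1a1 rose at a low level, with 0.66 and 0.88 TPM in the knockdown libraries against 0.18 and 0.17 TPM in the controls (log2 fold change 2.17, edgeR adjusted p = 0.00652). Their part in the results below was not tested. Library 2 of each group stood apart in a few mitosis genes, and their fold changes are also given without each of these libraries. The mitochondrial share of counts was 2.15% and 3.36% in knockdown 1 and 2, against 2.29% and 1.67% in control 1 and 2, so it was highest in knockdown 2 and lowest in control 2, and its part in the results was not tested.

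Most mitosis genes did not pass the test. In edgeR's quasi-likelihood test with Benjamini-Hochberg adjustment and a threshold of 0.05, none of the 42 genes rose (0 calls), 1 fell and 41 did not pass, while 4.2% of the 12821 genes tested were called higher and 1.76% lower. In DESeq2 0 rose, where 4.53% of genes were higher, and 2 fell (Kif23 and Smc2), where 2.46% of genes were lower. In edgeR 0 members had an unadjusted p under 0.05 with a positive fold change, where 12.1% of all tested genes did. The single call, 2.38% of the set, is near the background share of lower calls. The median log2 fold change over the 42 was -0.11, against -0.01 over all genes tested, and 31 of the 42 (73.8%) lay below 0, against 50.5% of all genes. Both knockdown libraries stood below both controls in 15 of the 42 genes, where 25.2% of all tested genes did so, and above both controls in 2 genes, where 26.4% did so. At an unadjusted p under 0.05, 7 members were lower, where 9.18% of all tested genes were. Against the mean of the controls the median log2 difference of the set was -0.17 in knockdown 1, with 35 of 42 genes below 0, and -0.04 in knockdown 2, with 26 of 42 below 0.

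The intervals describe the size of the difference among these 4 libraries, which may be technical. For 38 of the 42 genes (90.5%) the 95% interval of the fold change lay inside a 2-fold change in either direction, against 74.8% of all genes tested. For 28 of the 42 it lay inside a 1.5-fold change, against 5122 of all 12821 genes. Every member had 287 or more counts in each library, whereas the genes tested included genes with far fewer. Pecam1, for example, had 39 and 20 counts in the knockdown libraries and 9 and 7 in the controls. The 4 genes whose interval reached 2-fold were Cenpe, Cenpf, Mki67 and Smc4. Summed over the set, mitosis transcripts made up 3961 and 4142 TPM in the knockdown libraries, against 4297 and 4406 TPM in the control libraries. The order of levels ran from 546 TPM for Pttg1, which encodes securin, to 5.49 TPM for Cenpf in the knockdown libraries on average, and from 549 to 8.86 TPM for the same genes in the controls.

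**Figure D2:**
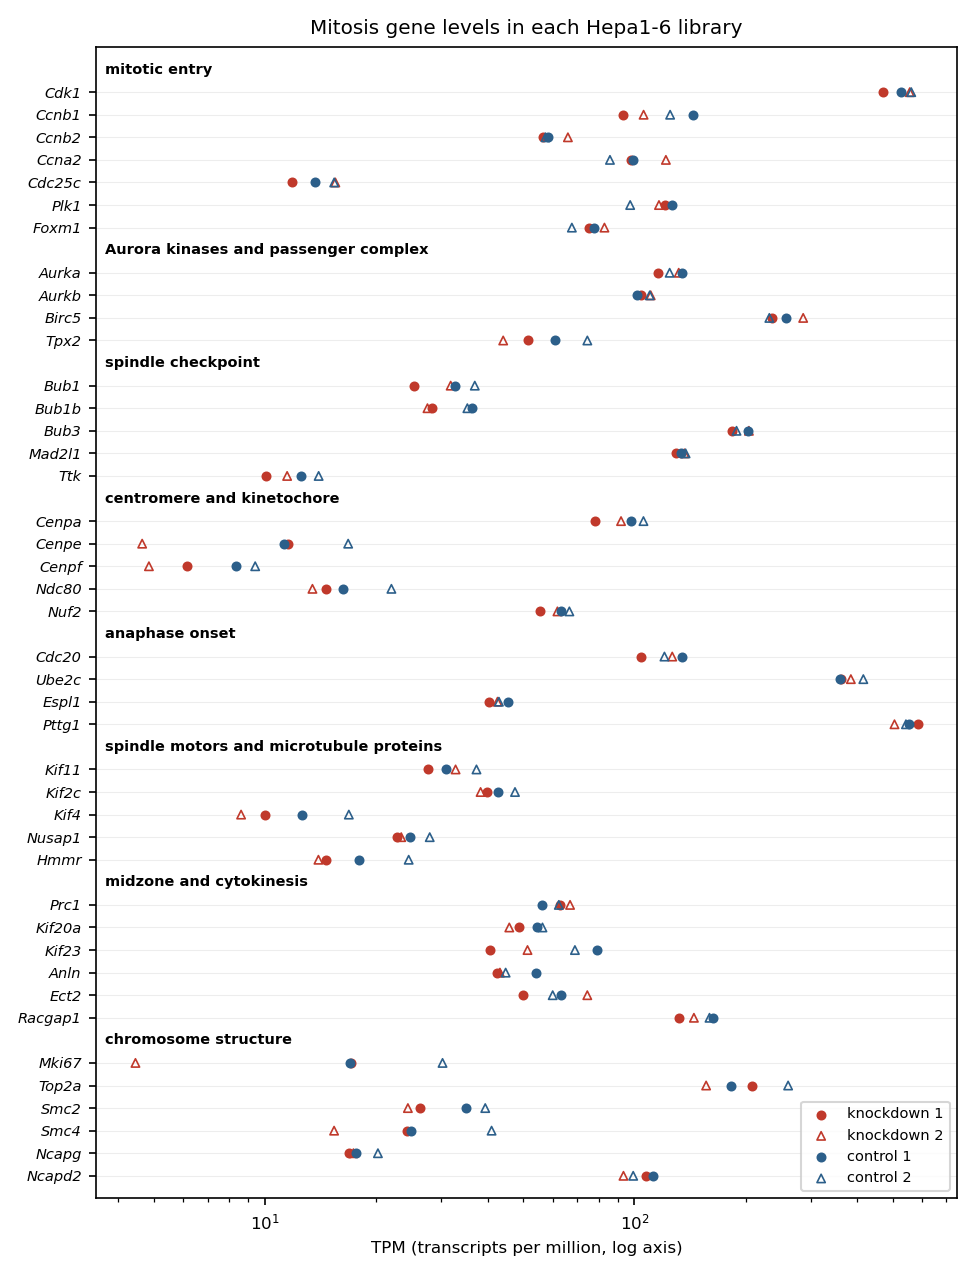
TPM (log axis) of each of the 42 mitosis genes in knockdown libraries (red) and control libraries (blue), replicate 1 as filled circles and replicate 2 as open triangles, ordered by role. Kif23 shows both knockdown libraries to the left of both controls, while in Mki67, Cenpe and Smc4 knockdown 2 lies far left and control 2 far right.

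Kif23 was the gene of the set that fell. It encodes a kinesin-6 motor (MKLP1) that joins Racgap1 in the centralspindlin complex, which bundles microtubules in the spindle midzone and directs the cleavage furrow. Kif23 (ENSMUSG00000032254.10) lies on chromosome 9, from 61915905 to 61946774 on the minus strand in GRCm38. It had 1081 and 1186 counts in knockdown 1 and 2, against 1846 and 1783 counts in control 1 and 2. The groups did not overlap, and the libraries of one group lay close together. Kif23 averaged 58.2 ± 4.26 CPM (counts scaled to a common library size, TMM-normalized) in knockdown cells and 92.3 ± 3.37 CPM in control cells (SD, n = 2 each). Kif23 was thus at 63.0% of its control level (95% interval 50.9% to 78.0%), a log2 fold change of -0.67 with an SE of 0.137 and an edgeR adjusted p of 0.0215. Kif23 did not pass without knockdown 1 (adjusted p = 0.0559), in limma on log2(TPM + 1) (0.0766) or without a filter on low counts (0.180). Its adjusted p ranged from 2.303e-04 to 0.180 over the 15 settings, and its log2 fold change from -0.76 to -0.60.

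The other midzone and cytokinesis genes did not pass. Racgap1, the partner of Kif23 in centralspindlin, had 132.1 and 144.9 TPM in the knockdown libraries, against 163.1 and 159.7 TPM in the controls. In CPM its groups overlapped, and the interval of its fold change ran from 76.2% to 116% of the control level. Ect2, the exchange factor that centralspindlin brings to the midzone, had 50.01 and 74.52 TPM in the knockdown libraries, against 63.3 and 60.1 TPM in the controls, so the controls lay between the knockdown libraries. Kif20a (MKLP2), which carries the chromosomal passenger complex to the midzone, had 48.6 and 45.8 TPM in the knockdown libraries, against 54.5 and 56.3 TPM in the controls. Anln, the anillin scaffold of the contractile ring, had 42.6 and 43.2 TPM in the knockdown libraries, against 54.2 and 44.8 TPM in the controls. Prc1, which crosslinks antiparallel microtubules, had 63.0 and 66.9 TPM in the knockdown libraries, against 56.3 and 62.4 TPM in the controls. In TPM both knockdown libraries of Prc1 thus stood above both controls. In CPM its groups overlapped, at 115.0 and 124.4 in the knockdown libraries against 106.5 and 116.1 in the controls. With Kif23 included, the midzone and cytokinesis genes summed to 377 and 427 TPM in the knockdown libraries, against 471 and 452 TPM in the control libraries. Kif23 itself made up 40.6 and 51.3 TPM of these sums in the knockdown libraries, against 79.2 and 69.0 TPM in the controls.

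**Figure D3:**
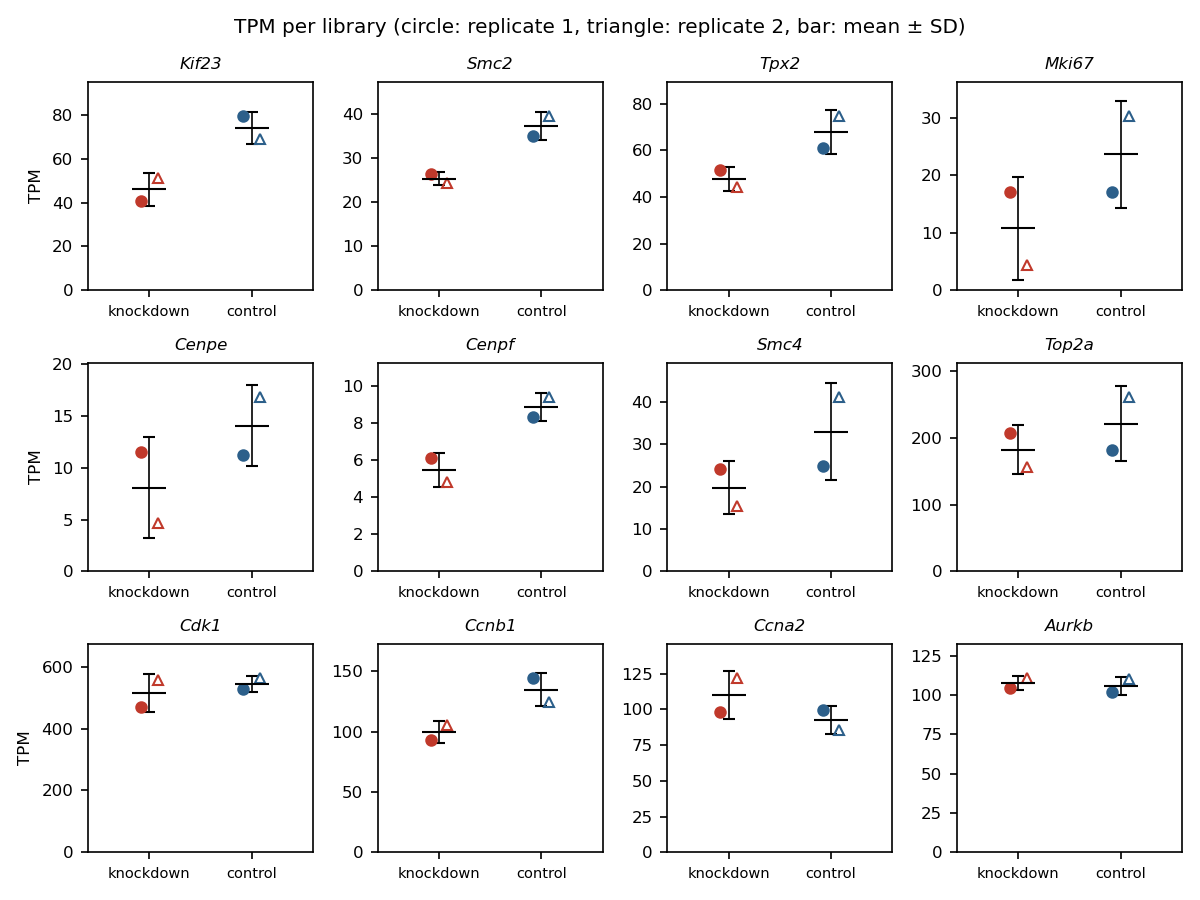
TPM per library of 12 mitosis genes, knockdown left and control right in each panel, replicate 1 as a circle and replicate 2 as a triangle, with horizontal bars for the mean and whiskers for the SD (n = 2 each). Kif23, Smc2 and Tpx2 show both knockdown libraries below both controls, whereas Mki67, Cenpe and Smc4 show a wide spread inside each group.

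Of the 7 mitotic entry genes, 0 passed in edgeR, and 0 had an unadjusted p under 0.05. Cdk1, the kinase that drives entry, had 471 and 557 TPM in the knockdown libraries, against 526 and 562 TPM in the controls. Its groups overlapped, and the interval of its fold change ran from 80.2% to 122% of the control level. Ccnb1, the main cyclin B, had 93.3 and 105.9 TPM in the knockdown libraries, against 144.2 and 124.9 TPM in the controls. Those TPM groups did not overlap, but the TMM-normalized counts did. The counts, which were fractional in all 4 libraries before rounding, were 3209 and 3592 against 4543 and 3612, and Ccnb1 did not pass (edgeR adjusted p = 0.390). Ccna2, the cyclin A of S phase and early mitosis, had the highest fold change of the set, with 4177 and 5211 counts in the knockdown libraries against 4102 and 3480 counts in the controls. Its log2 fold change of 0.32 (SE 0.158) did not pass (edgeR adjusted p = 0.284), and its counts too were fractional in all libraries. It was 0.15 without knockdown 2 and 0.19 without control 2. Foxm1, the transcription factor of late cell cycle genes, had 75.3 and 82.9 TPM in the knockdown libraries, against 77.6 and 67.7 TPM in the controls, and overlapped in TPM but not in CPM. Plk1, the polo-like kinase, Ccnb2 and the phosphatase gene Cdc25c overlapped between the groups, the intervals of their fold changes lying between 72.9% and 141% of the control level.

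Of the 4 Aurora kinase and passenger complex genes, 0 passed in edgeR, and Tpx2 alone had an unadjusted p under 0.05. Aurkb, the kinase of the passenger complex, had 104.4 and 110.7 TPM in the knockdown libraries, against 101.8 and 110.0 TPM in the controls, and the interval of its fold change ran from 86.9% to 130% of the control level. Birc5, which encodes survivin of the same complex, had 236 and 286 TPM in the knockdown libraries, against 257 and 232 TPM in the controls. Aurka, the spindle pole kinase, had 115.7 and 131.8 TPM in the knockdown libraries, against 134.3 and 124.5 TPM in the controls, again with overlap. Its activator on spindle microtubules, Tpx2, had 51.4 and 44.1 TPM in the knockdown libraries, against 61.1 and 74.5 TPM in the controls. The Tpx2 groups did not overlap, and its log2 fold change of -0.41 (SE 0.138) did not pass (edgeR adjusted p = 0.119).

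Of the 5 checkpoint genes, 0 passed in edgeR, none had an unadjusted p under 0.05, and 3 had both knockdown libraries below both controls, where 25.2% of all tested genes did. Bub1b, which encodes the checkpoint protein BubR1, had 28.2 and 27.5 TPM in the knockdown libraries, against 36.3 and 35.3 TPM in the controls. The groups were apart and each was narrow, and the log2 fold change of -0.28 (SE 0.133) did not pass (edgeR adjusted p = 0.270). The checkpoint kinase genes Bub1 and Ttk also had both knockdown libraries below both controls, at 25.2 and 31.8 against 32.6 and 36.9 TPM for Bub1, and at 10.1 and 11.5 against 12.5 and 13.95 TPM for Ttk. Mad2l1, the Mad2 inhibitor of Cdc20, had 129.2 and 136.6 TPM in the knockdown libraries, against 133.5 and 137.6 TPM in the controls. Bub3, the kinetochore adaptor of Bub1 and BubR1, likewise overlapped between the groups.

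The 4 genes of anaphase onset overlapped between the groups in CPM. Cdc20, the activator of the anaphase-promoting complex, had 104.0 and 126.6 TPM in the knockdown libraries, against 134.1 and 120.6 TPM in the controls. Ube2c, the ubiquitin-conjugating enzyme of that complex, had 362 and 386 TPM in the knockdown libraries, against 360 and 417 TPM in the controls. Pttg1 had 586 and 506 TPM in the knockdown libraries, against 555 and 544 TPM in the controls. Espl1, the separase that cuts cohesin, had the smallest p of this group, with a log2 fold change of -0.11 (SE 0.138, edgeR adjusted p = 0.712) and an interval from 74.8% to 115% of the control level.

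Of the spindle motors and microtubule proteins, 4 of 5 had both knockdown libraries below both controls, where 25.2% of all tested genes did, and 0 passed the test. Kif4, the chromokinesin Kif4a, had 9.97 and 8.60 TPM in the knockdown libraries, against 12.6 and 16.8 TPM in the controls (log2 fold change -0.51, SE 0.173, edgeR adjusted p = 0.124), with fractional counts in all 4 libraries. Without knockdown 2 it was -0.33. Hmmr, the spindle-associated hyaluronan receptor, had 14.6 and 13.9 TPM in the knockdown libraries, against 17.9 and 24.5 TPM in the controls (log2 fold change -0.49, SE 0.166, edgeR adjusted p = 0.122). Without control 2 it was -0.28. Kif2c, the microtubule-depolymerizing kinesin MCAK, and Nusap1, a microtubule bundling protein, had intervals reaching from 73.0% to 115% of the control level. Kif11, the Eg5 motor that separates spindle poles, had 27.5 and 32.8 TPM in the knockdown libraries, against 30.8 and 37.3 TPM in the controls, with overlap.

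**Figure D4:**
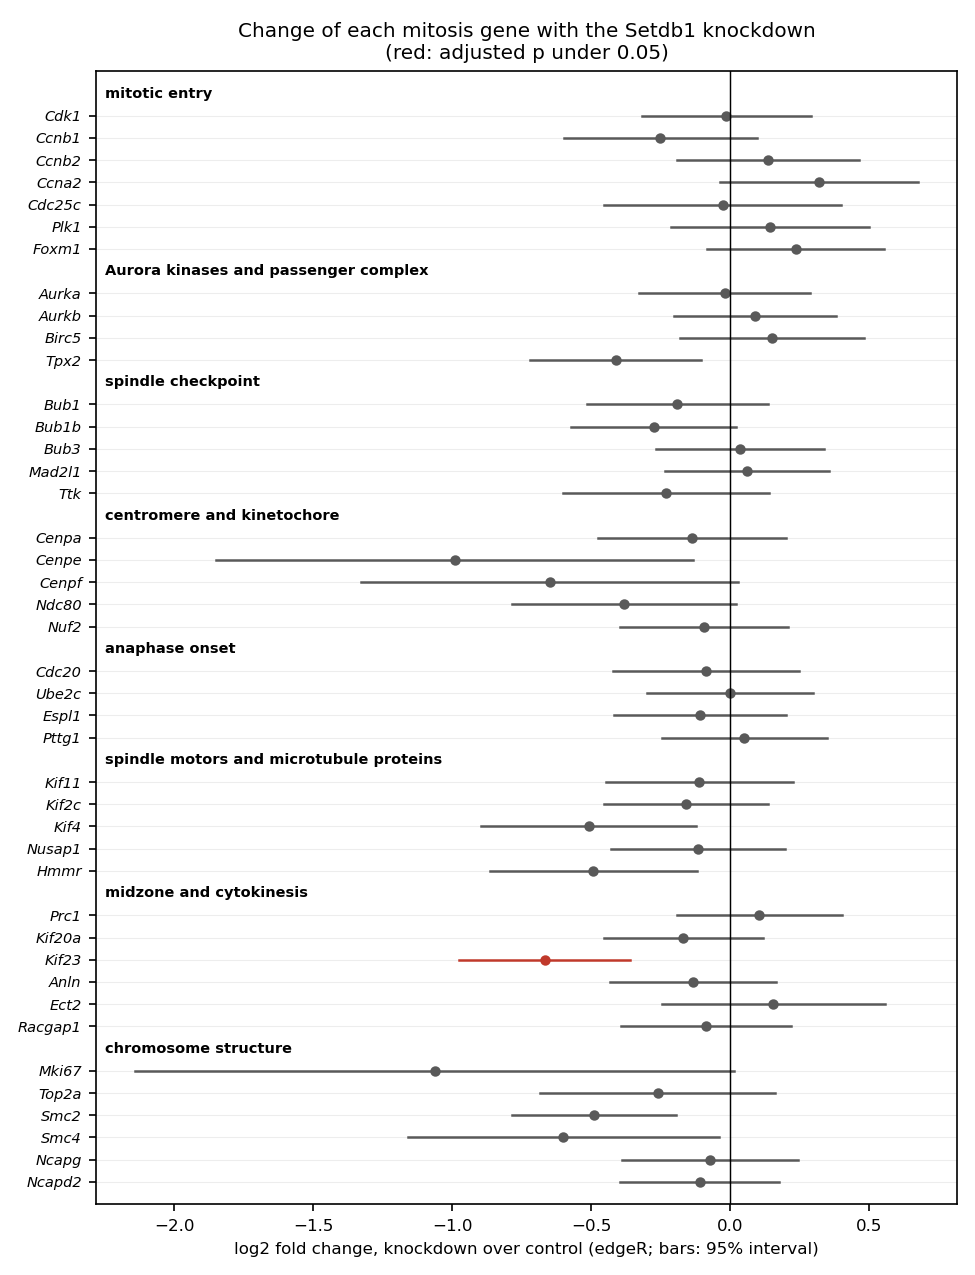
Log2 fold change, knockdown over control, of each mitosis gene (edgeR), with its 95% interval as a bar and genes past an adjusted p of 0.05 in red. Kif23 at -0.67 is the gene in red, and the widest intervals belong to Mki67, Cenpe, Cenpf and Smc4.

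Centromere and chromosome structure genes held the lowest fold changes and the widest spread. Mki67, which encodes the Ki-67 coat protein of mitotic chromosomes, had 2680 and 694 counts in knockdown 1 and 2, against 2591 and 4507 counts in control 1 and 2. Knockdown 1 and control 1 were thus alike, knockdown 2 was lowest and control 2 highest. The log2 fold change was -1.06 with an SE of 0.480 and did not pass (edgeR adjusted p = 0.241), the interval running from 22.7% to 101% of the control level. Cenpe, a kinetochore motor that aligns chromosomes, had 728 and 287 counts in the knockdown libraries, against 719 and 1316 counts in the controls (log2 fold change -0.99, SE 0.382, edgeR adjusted p = 0.171). Smc4, a condensin core subunit, had 1428 and 917 counts in the knockdown libraries, against 1362 and 2225 counts in the controls (log2 fold change -0.60, SE 0.249, edgeR adjusted p = 0.202). In both genes the libraries stood in the same order as for Mki67. These values moved with the library left out. The log2 fold change of Mki67 was -0.39 without knockdown 2 and -0.63 without control 2, that of Cenpe -0.47 and -0.51, and that of Smc4 -0.32 and -0.22. Without knockdown 1 they were -2.33, -1.80 and -0.95, and without control 1 -1.40, -1.36 and -0.90.

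Cenpf, a kinetochore protein of late G2 and mitosis, had 972 and 496 counts in the knockdown libraries, against 875 and 1448 counts in the controls (log2 fold change -0.65, SE 0.303, edgeR adjusted p = 0.254). It was -0.25 without knockdown 2, -0.26 without control 2, -1.21 without knockdown 1 and -0.96 without control 1. Its TPM values did not overlap, at 6.13 and 4.84 TPM in the knockdown libraries against 8.32 and 9.39 TPM in the controls. TPM divides by a transcript length that RSEM weights by isoform abundance, and for Cenpf that length was 10167 and 6691 bases in the knockdown libraries, against 7029 and 10390 bases in the controls. The estimated isoform mix of Cenpf thus varied between libraries of one group, and its TPM and counts order the libraries differently. In 8 of the 42 genes the highest such length was over 1.1 times the lowest, Kif23 among them (1927 and 1710 bases in the knockdown libraries, against 1758 and 1945 bases in the controls).

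Top2a, the topoisomerase that untangles sister chromatids, had 208 and 156 TPM in the knockdown libraries, against 182 and 261 TPM in the controls, and its groups overlapped (log2 fold change -0.26, SE 0.189, edgeR adjusted p = 0.472). Without control 2 its log2 fold change was 0.035. Smc2, the other core subunit of condensin, had 26.3 and 24.3 TPM in the knockdown libraries, against 35.0 and 39.4 TPM in the controls. Its groups did not overlap and were narrow, and its log2 fold change of -0.49 (SE 0.132) did not pass in edgeR (adjusted p = 0.0609), while DESeq2 called it (adjusted p = 0.0301). Over the 15 settings the adjusted p of Smc2 ranged from 0.00503 to 0.261. The condensin I subunits Ncapg and Ncapd2 had intervals of the fold change between 76.0% and 118% of the control level. Ndc80, which binds microtubules at the kinetochore, had 14.6 and 13.4 TPM in the knockdown libraries, against 16.3 and 22.0 TPM in the controls. Its partner Nuf2 had 55.4 and 61.9 TPM in the knockdown libraries, against 63.2 and 66.6 TPM in the controls. Cenpa, the centromeric histone H3 variant, had 78.3 and 92.0 TPM against 97.8 and 105.8 TPM. In CPM the Cenpa groups overlapped, at 55.2 and 66.3 in the knockdown libraries against 70.3 and 63.4 in the controls. Cenpa did not pass (edgeR adjusted p = 0.653).

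The spread inside the groups was concentrated in a few genes. Mki67, Cenpe, Cenpf and Smc4 differed by over 1.5-fold in CPM between the knockdown libraries, and the same 4 genes did so between the control libraries. They make up 9.52% of the set, and 377 of all genes tested (2.94%) differed by that much within both groups. In all 4 genes knockdown 2 was below knockdown 1 and control 2 was above control 1. Mki67 differed 3.81-fold between the knockdown libraries and 1.71-fold between the controls. Across the 42 genes, the log2 ratio of knockdown 2 over knockdown 1 had a Spearman correlation of -0.51 with transcript length, and the ratio of control 2 over control 1 one of 0.42. Over all 12821 genes the same correlations were -0.02 and 0.10. With GC content (the share of G and C bases) in place of length, they were 0.13 and -0.43 across the 42 genes. Over all genes tested those with GC content were -0.23 and -0.15. Genes within a library share its RNA and preparation, so these are descriptions and carry no p.

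**Figure D5:**
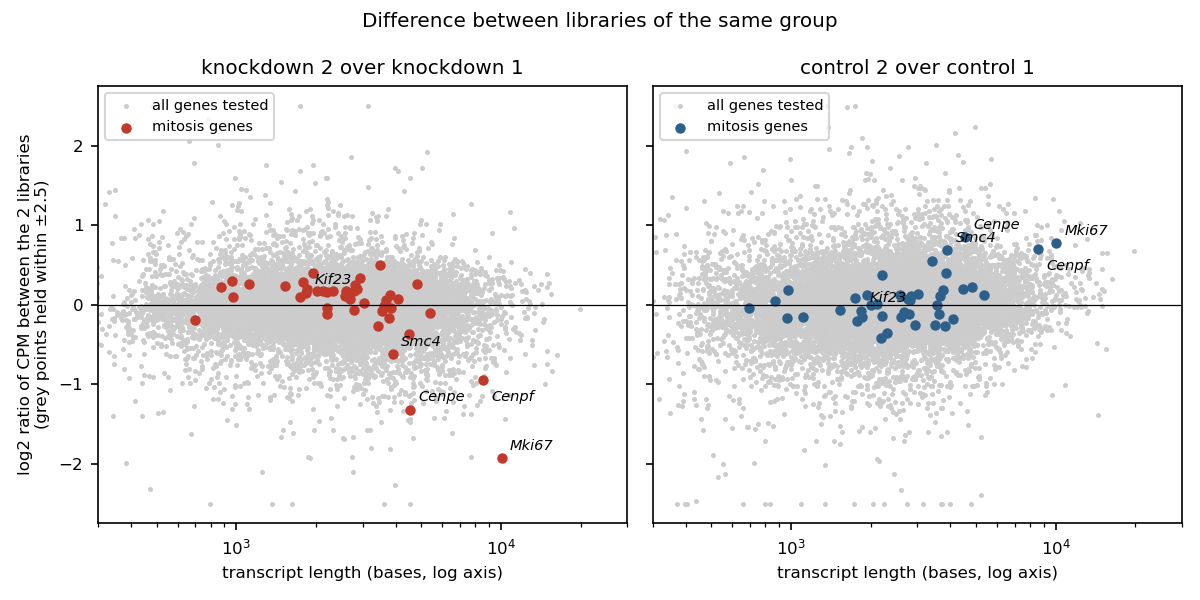
Log2 ratio of CPM between the libraries of one group against transcript length (bases, log axis), knockdown 2 over knockdown 1 at left and control 2 over control 1 at right, with mitosis genes in colour and all genes tested in grey. Mki67, Cenpe, Cenpf and Smc4 lie below 0 at left and above 0 at right, and Kif23 lies near 0 in both.

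Which libraries were compared decided how many mitosis genes were called. Without knockdown 1 there were 5 lower members, Cenpe, Cenpf, Kif4, Mki67 and Smc4 (11.9% of the set), where 3.42% of the genes tested were lower. Without control 1 there were 8, the same 5 with Hmmr, Kif23 and Smc2, where 5.24% of the genes tested were lower. Without knockdown 2 or without control 2, Kif23 was the single call, where 1.49% and 2.17% of the genes tested were lower. These fits leave 1 library in a group and assume that it varies like the others. With transcript length and GC corrected for, an alternative chosen after the data had been seen, Kif23 was again the single call (1.97% of genes tested were lower). The log2 fold change of Mki67 was then -1.01. That correction was fitted over all genes tested, where the correlations were -0.02 and 0.10 with length and -0.23 and -0.15 with GC. It therefore could not remove a length or GC trend particular to the mitosis genes.

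Of 148 genes in 8 lists, 146 could be tested. Of these 2 rose (1.37%, against 4.2% of all genes), 1 fell (0.685%, against 1.76%) and 143 did not pass. Ccnd2 and Cdkn1c had 0 counts in every library. Among 19 genes of DREAM, MuvB and E2F factors, E2f2, an activating E2F, rose, with 268 and 188 counts in the knockdown libraries against 105 and 118 counts in the controls (log2 fold change 1.04, SE 0.237, edgeR adjusted p = 0.0334). It did not pass without knockdown 1 (adjusted p = 0.159), and its adjusted p ranged from 2.146e-04 to 0.244 over the settings. The other 18, Mybl2 and the MuvB genes Lin9, Lin37, Lin52 and Lin54 among them, did not pass. Of 21 G1/S and replication genes tested, Ccnd3, a D-type cyclin that drives passage through G1, rose, with 106.6 and 106.1 TPM in the knockdown libraries against 74.4 and 70.8 TPM in the controls (log2 fold change 0.64, SE 0.128, edgeR adjusted p = 0.0186), with fractional counts in all 4 libraries.

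Of 6 cyclin-dependent kinase inhibitor genes tested, Cdkn2b, which encodes the inhibitor p15 of Cdk4 and Cdk6, fell, with 40.1 and 38.7 TPM in the knockdown libraries against 57.8 and 77.9 TPM in the controls (log2 fold change -0.73, SE 0.167, edgeR adjusted p = 0.0345). It did not pass without control 2 (adjusted p = 0.101), and its adjusted p ranged from 2.322e-04 to 0.255. Cdkn1a, the p21 gene, had 142.3 and 128.8 TPM in the knockdown libraries, against 117.7 and 117.6 TPM in the controls, and did not pass (edgeR adjusted p = 0.281). Cdkn1b, the p27 gene, had 19.97 and 21.2 TPM in the knockdown libraries, against 28.5 and 34.9 TPM in the controls, and did not pass either (adjusted p = 0.107). E2f2, Ccnd3 and Cdkn2b did not pass in limma on log2(TPM + 1) (adjusted p of 0.142, 0.0588 and 0.0696).

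The remaining 5 lists had 0 calls in edgeR in either direction. Of their 100 members 14 had an unadjusted p under 0.05, where 21.3% of all genes tested did. Among other spindle and cytokinesis genes 6 were lower (33.3%), and 3 each among other passenger and kinetochore (8.11%) and condensin and cohesin genes (20%). The G2/M and anaphase-promoting complex lists had 1 higher member each (7.14% and 6.25%). Over all genes 9.18% were lower and 12.1% higher at that threshold. In the spindle list 10 genes (55.6%) had both knockdown libraries below both controls, where 25.2% of all genes did. Of 18 other spindle and cytokinesis genes, 16 (88.9%) lay below 0, against 50.5% of all genes. The median log2 fold change was -0.27 over these 18 genes and -0.12 over 15 other condensin and cohesin genes. It was -0.04 over 37 other passenger and kinetochore genes, -0.01 over 14 other G2/M kinases and regulators and -0.01 over 16 genes of the anaphase-promoting complex. Ckap5, a microtubule polymerase of the spindle, had the smallest p of the spindle list, with 21.0 and 14.8 TPM in the knockdown libraries against 26.9 and 35.4 TPM in the controls (log2 fold change -0.72, SE 0.188, edgeR adjusted p = 0.0556). As for Mki67 and Cenpe, knockdown 2 was lowest and control 2 highest, and DESeq2 called it (adjusted p = 0.00775). The adjusted p of Ckap5 ranged from 3.653e-05 to 0.280. The smallest p of its list belonged to the cohesin release factor Wapl (log2 fold change -0.44, edgeR adjusted p = 0.0970), the cyclin F gene Ccnf (0.50, adjusted p = 0.0791) and the anaphase-promoting complex subunit Anapc11 (0.43, adjusted p = 0.194).

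Among the 35 genes with a listed promoter, fold changes with and without CHR letters covered much the same range. The 7 genes with no promoter entry, Ccna2 (log2 fold change 0.32) and Smc4 (-0.60) among them, stand in neither group. The 28 genes with CHR letters in a listed promoter had a median log2 fold change of -0.12, between -1.06 and 0.16, and the 7 genes without them a median of -0.09, between -0.99 and 0.15. Cenpe, among the lower of the set, had no CHR letters in its window, and neither did Ccnb1, Birc5 and Pttg1. The Pttg1 window, on the minus strand, reached base 43426231, short of the GENCODE start at 43426251. The sequence before that start was therefore not searched.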

How the data were processed

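Total RNA was extracted with an RNeasy kit and made into libraries with a directional NEBNext kit, per the labels. For each library the authors deposited an expected count, a TPM and a length for each of 115821 rows, per the file headers, of which 54838 are genes and 60983 are loci named by coordinates. The submitters' processing notes list FastQC, STAR, RSEM and DESeq2, with GRCm38 and mm10 as builds, and the annotation release and strand setting were not given in the sources used here.

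Gene rows were tested, with expected counts rounded to whole numbers and library sizes taken over all rows. Genes passing filterByExpr entered edgeR 4.0.16 (R 4.3.3) with TMM scaling. DESeq2 1.42.0 and limma 3.58.1 on log2(TPM + 1) and log2(TPM + 0.1) were alternatives, as were other filters and scalings, leaving out mitochondrial genes, a replicate block and leaving out each library. The procedure was tested on simulated data. An exact permutation test of 2 against 2 libraries cannot go below p = 0.333. Full statistics are given for called genes and for the smallest p of each role or list, except for 1 list, whose gene is not reported here. Other members with an unadjusted p under 0.05, and Cenpf, Mki67 and Top2a, were added after their values were seen. Members and lists were chosen with earlier results of these data known. Gene coordinates are from GENCODE M21 (GRCm38) and promoters from RefSeq (GRCm38.p6).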

Additional observations from a re-analysis of the deposited data

How the results depend on the processing

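The median log2 fold change of the 42 mitosis genes was -0.11 and stayed between -0.18 and -0.05 over all settings run, and 0 members were higher in any of them. The count of lower members was 1 in the edgeR fit, 2 in DESeq2, 0 in limma with either pseudocount and 0 without a low-count filter, where edgeR called 0 higher and 0 lower genes of 21511. Leaving out 1 library gave 1 to 8 lower members, 543 to 981 higher and 197 to 695 lower genes in all, 2 to 6 higher and 0 to 9 lower pathway genes. The lone library left in a group is assumed to vary like the others. In limma, 245 genes were higher and 89 lower with a pseudocount of 1, and 242 and 85 with 0.1, with 0 pathway genes in either direction, as without the filter. DESeq2 gave 2 lower pathway genes. The log2 fold change of Top2a changed sign when a library was left out, from -0.51 without control 1 to 0.035 without control 2. The cause of these shifts was not tested.

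With the replicate number as a block, 3 of the 42 mitosis genes (Cenpe, Kif23 and Mki67) and 2 of the 146 pathway genes were lower. Over all genes tested 584 (4.56%) were higher and 278 (2.17%) lower. Deviations of same-numbered libraries correlated at -0.183 and the labels give no shared day or preparation, so the numbers were not taken as pairs, and whether such libraries shared a batch was not tested. A crossed pairing, chosen like the length and GC correction after the data had been seen, gave 1352 higher (10.5%) and 987 lower genes (7.7%). Of the 42 mitosis genes 9 were lower, and of the 146 pathway genes 5 were higher and 18 lower. With 2 libraries a group, the interval for Mki67 spanned 22.7% to 101% of the control level, a width set by the spread between libraries, since its counts were 694 or more.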
